A study of Homo sapiens with 6 samples.

Results

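The integrated stress response and the serine synthesis pathway that it feeds were followed through 32 genes, taken by symbol from the deposited table of 67130 genes. All 32 were found on the primary chromosomes, and 1 further row, a copy of PCK2 on a patch contig, was at 0 in every sample and was left out. The genes comprise 4 eIF2α kinases, 1 phosphatase subunit, 8 transcriptional regulators, 4 stress targets, 6 enzymes of serine and one-carbon metabolism, 4 other amino acid enzymes, 4 amino acid transporters and 1 tRNA exporter.

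RNA-seq was performed in hTERT-RPE1-TOShOFD1 cells, an hTERT-immortalized human retinal pigment epithelial line that was infected with a lentivirus for a doxycycline-inducible (Tet-On) hairpin that targets OFD1. OFD1 is a protein of centriolar satellites, and its depletion was used to ask how these cells leave the cell cycle. The 3 control samples were grown without doxycycline and the 3 OFD1-depleted samples with 200 ng/mL doxycycline, each for 72 h, and the study describes its columns as biological replicates. Both groups carry the hairpin, and the labels call the control genotype WT, so the control is the uninduced line. Infected cells were kept under drug selection, and whether the line is a single clone is not given in the sources used here. Because 0 samples received doxycycline without the hairpin, the effects of doxycycline, of hairpin expression and of OFD1 loss cannot be told apart.

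Expression was deposited as FPKM, fragment counts scaled by transcript length and by the total mapped in a sample. The targeted gene OFD1 had 3.34, 3.62 and 3.44 FPKM in control and 0.795, 0.763 and 1.43 FPKM in OFD1-depleted samples, a log2 fold change of -1.75 (standard error, SE, 0.255, adjusted p = 0.00085), so that 28.7% of the control mean remained. The groups did not overlap, and an exact two-sided permutation gave p = 0.1, the lower limit for groups of 3. The summed FPKM ran from 408302 to 414547 in control and from 433262 to 493510 in OFD1-depleted samples, with 8.66% to 13.8% and 15.6% to 19.3% of it in mitochondrially encoded genes. The label of retinal epithelium was only partly met by marker genes. KRT8 and KRT18, keratins of simple epithelia, had control means of 146 and 116 FPKM and depleted means of 178 and 159 FPKM, without overlap between the groups and without passing the threshold used below (KRT18, adjusted p = 0.0548). CDH1 (E-cadherin) had control and depleted means of 0.0181 and 0.0213 FPKM, and EPCAM, KRT5 and KRT14 were at 0 in all samples. Of the mesenchymal genes, VIM had 4288 and 3763 FPKM, again without overlap, FN1 had 1765 and 1656 FPKM, and CDH2 (N-cadherin) fell from 74.9 to 54.2 FPKM (log2 fold change -0.47, adjusted p = 0.0387). Of 11 pigment epithelium genes, MITF, OTX2 and RDH5 reached a mean of 1 FPKM, and RPE65, the retinoid isomerase of that tissue, had 0.0113 FPKM in control. The summed FPKM of the 11 genes was 11.2 to 12.6 in control and 14.1 to 16.1 in OFD1-depleted samples. The separation rested on BEST1, which had 4.33 FPKM in depleted replicate 2 and at most 0.0475 FPKM in the other samples. Without it the sums were 11.2 to 12.5 in control and 14.4, 11.8 and 14.1 in depleted replicates 1, 2 and 3, which overlapped. The part of these marker differences and of the mitochondrial share in the results below was not tested. The labels also describe an extraction from retinas, but no photoreceptor gene of 9 exceeded 0.286 FPKM in any sample. Of 6 blood and endothelial markers, only CD68, a lysosomal protein with a control mean of 38.8 FPKM, reached a mean of 1 FPKM.

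In the integrated stress response, 4 kinases sense different stresses and phosphorylate the α subunit of the translation factor eIF2. EIF2AK1 (HRI) responds to heme shortage and mitochondrial stress, EIF2AK2 (PKR) to double-stranded RNA, EIF2AK3 (PERK) to unfolded proteins in the endoplasmic reticulum, and EIF2AK4 (GCN2) to uncharged tRNA. Phosphorylated eIF2 slows most translation but favours the mRNA of ATF4, a transcription factor that, with C/EBP partners, switches on genes for amino acid synthesis and uptake, tRNA charging and, when stress persists, cell death. Kinase activity and ATF4 protein are set after transcription, so mRNA levels describe only the transcript side of this response.

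The 32 genes covered a wide range of levels in control cells. STC2, a secreted glycoprotein, was the most abundant at 422 ± 49.8 FPKM (SD, n = 3), followed by ATF4 at 161 ± 7.28 FPKM (SD, n = 3). The next were the transporter genes SLC3A2 at 71.6 ± 5.70, SLC7A5 at 61.7 ± 8.67 and SLC1A5 at 49.8 ± 9.10 FPKM and the mitochondrial serine enzyme SHMT2 at 49.6 ± 2.70 FPKM (SD, n = 3 each). The SDs of these last 4 genes overlap with those of their neighbours in the order, so their ranks are not distinct. At the low end, ALDH1L2 (0.0270 FPKM) and JDP2 (0.855 FPKM) had means under 1 FPKM over the 6 samples and were not tested. CTH had a control mean of 0.824 FPKM and passed this limit only through its depleted samples.

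**Figure D1:**
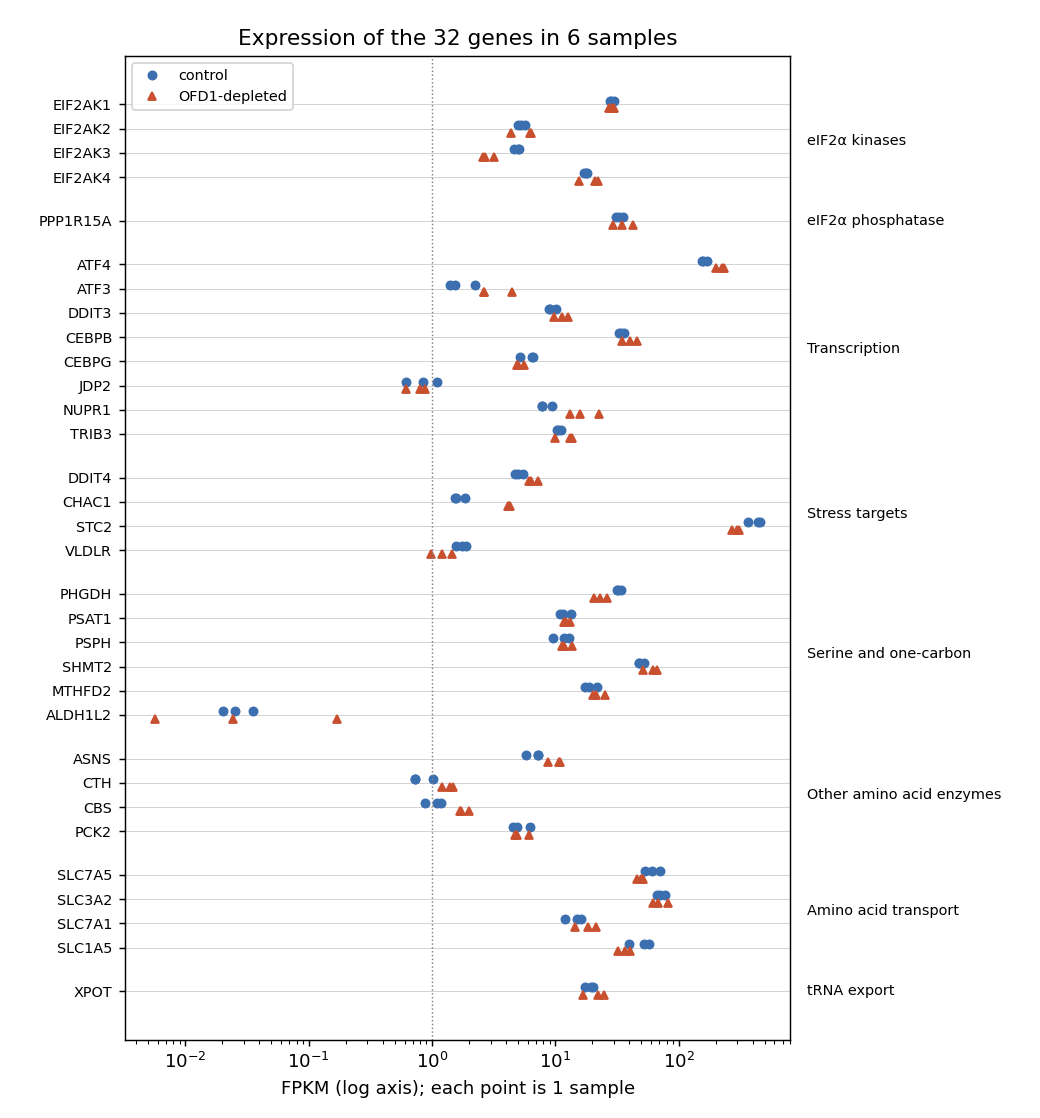
Expression of the 32 genes in FPKM on a log axis, with 1 point per sample (circles, 3 control; triangles, 3 OFD1-depleted), grouped by role; the dotted line marks 1 FPKM, the mean required for testing. CHAC1, NUPR1, ASNS and EIF2AK3 show groups that are clearly apart, whereas the points of EIF2AK1, PSAT1 and PCK2 lie on top of each other.

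ATF4 and its C/EBP partners bind a composite element, here searched as TGATGNAA on either strand in windows from 250 bases before to 50 bases after each transcription start (RefSeq, GRCh38.p14). Windows were available for 27 of the 32 genes, all but EIF2AK1, NUPR1, PSPH, SHMT2 and ALDH1L2. The element was found in at least 1 window of 8 of these 27 genes (29.6%), against 4.46% of all 27305 gene symbols in the reference, and in 8 of their 43 windows (18.6%) against 3.62% of all windows. The genes were ASNS, ATF3, CEBPG, CHAC1, JDP2, SLC1A5, SLC3A2 and SLC7A1. The matches of SLC3A2 and SLC7A1 lie after the start, in coding sequence of an annotated transcript and in an untranslated exon. Known ATF4 targets such as ASNS and CHAC1 are among the 32 genes, so the contrast with all symbols may follow in part from their choice. Of the genes with a window, it was found in 3 of 4 that rose in OFD1-depleted cells, 0 of 3 that fell and 4 of 19 that did not pass the threshold. A match is a description of letters and not a measured binding site. The 5 matches that precede the start in tested genes are shown 5′ to 3′ on the strand of the gene, with the element in capitals, since they include 3 of the 5 genes that rose.
ASNS: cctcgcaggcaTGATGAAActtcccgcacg
CHAC1: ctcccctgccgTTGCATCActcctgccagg
ATF3: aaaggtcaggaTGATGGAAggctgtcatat
CEBPG: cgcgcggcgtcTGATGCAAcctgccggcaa
SLC1A5: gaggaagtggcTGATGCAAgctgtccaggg

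The ASNS stretch lies on the - strand of chromosome 7 from 97872458 to 97872487, with the element beginning 68 bases before the start. In the GENCODE version 44 annotation it is outside the canonical transcript and in an untranslated exon of another. The CHAC1 stretch lies on the + strand of chromosome 15 from 40953251 to 40953280, 209 bases before the start, and holds the element on the opposite strand. It is outside the canonical transcript too. The ATF3 stretch, on the + strand of chromosome 1 from 212565205 to 212565234, is outside all annotated ATF3 transcripts. Those of CEBPG (chromosome 19, + strand, 33374060 to 33374089) and SLC1A5 (chromosome 19, - strand, 46784893 to 46784922) lie inside the canonical transcripts but not in their exons, before alternative starts.

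Groups were compared by limma on log2(FPKM + 0.1) over 12025 genes whose mean reached 1 FPKM, a scale that understates the change of low genes. The threshold was a Benjamini-Hochberg adjusted p-value under 0.05 across all of them. Of the 30 genes of this response that were tested, 5 rose in OFD1-depleted cells (ATF4, ATF3, NUPR1, CHAC1 and ASNS) and 3 fell (EIF2AK3, STC2 and PHGDH). Among all tested genes 17.0% passed the threshold, 5.07% as higher (610 genes) and 11.9% as lower (1429 genes). The values of the 2 groups did not overlap in 13 of the 30 genes (43.3%), 8 of them higher and 5 lower. Among all tested genes they did not overlap in 36.1%, with 1661 genes higher and 2681 lower. The 8 higher genes of the 30 include CTH, which was tested only because of its depleted samples. The median log2 fold change was 0.14 over the 30 genes and -0.03 over all tested genes. The symbols were listed with earlier results of these data known, so these shares are given as descriptions, without a test of the list.

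The number that passed depended on scaling. When every sample was scaled to the same total (TPM), which moved the median of all genes by -0.145, 2 of the 30 genes were higher and 5 lower, and among all genes 268 were higher and 1988 lower. With the mitochondrially encoded genes left out of the total, 3 were higher and 3 lower. Median-of-ratios scaling gave 6 higher and 2 lower, and quantile normalization gave 7 higher and 3 lower, with 1093 higher and 1311 lower among all genes. Relative to the median of all genes, the median of the 30 genes lay 0.16 or 0.17 higher under each of these scalings and 0.17 higher in the values as deposited. CHAC1 was higher and EIF2AK3 lower past the threshold under every alternative in which they were tested, 17 for each gene, and NUPR1 was higher in 17 of 18.

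Among the kinases, EIF2AK3 fell and the other 3 did not pass the threshold. EIF2AK3 (ENSG00000172071, GRCh38 chromosome 2 from 88556741 to 88627464) had 5.04, 4.66 and 4.99 FPKM in control and 3.17, 2.61 and 2.68 FPKM in OFD1-depleted samples. Every depleted sample was below every control, and 57.6% of the control mean remained. This was a log2 fold change of -0.78 (SE 0.16, adjusted p = 0.00675), and no fit without 1 of the samples had an adjusted p-value above 0.0417. In bulk RNA, fewer cells that express a gene and less of its RNA per cell cannot be told apart.

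EIF2AK1, the most abundant kinase, had 28.1, 29.9 and 27.9 FPKM in control and 29.1, 27.5 and 29.7 FPKM in OFD1-depleted samples, with a log2 fold change of 0.01 (95% interval -0.25 to 0.27). EIF2AK4 had 17.9, 18.1 and 17.2 FPKM against 22.3, 15.6 and 21.0 FPKM, and EIF2AK2 had 5.27, 5.72 and 5.0 FPKM against 6.26, 4.37 and 6.39 FPKM. In both genes depleted replicate 2 lay below all controls while replicates 1 and 3 lay above them, so the groups overlapped. Their log2 fold changes were 0.13 (95% interval -0.20 to 0.46) and 0.07 (95% interval -0.31 to 0.45). EIF2AK2 overlaps GPATCH11 and EIF2AK1 overlaps AIMP2 on the opposite strand, and the strand setting of the counting is not given in the sources used here.

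PPP1R15A (GADD34), the stress-induced subunit that directs a phosphatase back to eIF2α, had 31.2, 35.4 and 32.8 FPKM in control and 34.9, 42.6 and 29.2 FPKM in OFD1-depleted samples. The depleted samples spanned both sides of the control range, and the log2 fold change was 0.09 (95% interval -0.25 to 0.42, adjusted p = 0.745).

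Of the transcriptional regulators, ATF4, ATF3 and NUPR1 rose. ATF4 (ENSG00000128272, chromosome 22 from 39519695 to 39522683) had 156, 169 and 158 FPKM in control and 233, 227 and 202 FPKM in OFD1-depleted samples, with no overlap. The log2 fold change was 0.45 (SE 0.126, adjusted p = 0.0310). The call was lost without control replicate 1, without control replicate 3 and without OFD1-depleted replicate 1, with adjusted p-values up to 0.161, and under TPM scaling, where the log2 fold change was 0.30.

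ATF3 (ENSG00000162772, chromosome 1 from 212565334 to 212620777), an early stress factor of the same family, had 1.54, 1.40 and 2.23 FPKM in control and 4.48, 2.67 and 2.64 FPKM in OFD1-depleted samples. The depleted samples were all higher, replicate 1 by the most, and the log2 fold change was 0.87 (SE 0.259, adjusted p = 0.0411). This call was also lost under TPM scaling and without either of control replicates 1 and 2 or OFD1-depleted replicates 1 and 3 (adjusted p up to 0.138). In limma it was lost too with mitochondrially encoded genes left out of the total (adjusted p = 0.0832) and without a filter (adjusted p = 0.186). NUPR1 (ENSG00000176046, chromosome 16 from 28532708 to 28539008), a small stress-induced chromatin regulator, had 9.44, 7.76 and 7.77 FPKM in control and 16.0, 22.8 and 13.1 FPKM in OFD1-depleted samples. Its depleted samples were all above the controls, with replicate 2 the highest, and its log2 fold change of 1.01 (SE 0.192, adjusted p = 0.00425) passed the threshold whichever sample was left out.

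The death-associated factor DDIT3 (CHOP) had 9.10, 10.1 and 8.88 FPKM in control and 12.7, 11.4 and 9.82 FPKM in OFD1-depleted samples. Its lowest depleted sample lay inside the control range, and its log2 fold change of 0.27 (95% interval -0.04 to 0.58) did not pass the threshold. DDIT3 lies opposite MARS1, whose mean was 54.5 FPKM, so its value is uncertain if reads were counted without strand. TRIB3, a pseudokinase that binds and restrains ATF4, had 11.1, 10.3 and 10.6 FPKM against 13.8, 13.3 and 9.87 FPKM, with depleted replicate 3 below all controls (log2 fold change 0.19, 95% interval -0.14 to 0.52). Its relatives TRIB1 and TRIB2 had log2 fold changes of 0.17 (adjusted p = 0.61) and 0.45 (adjusted p = 0.0634). BACH1, a repressor of heme-regulated genes that was read beside these factors, had one of 0.58 (adjusted p = 0.0559). CEBPB and CEBPG encode C/EBP proteins that pair with ATF4. CEBPB had control values of 33.2 to 36.4 and depleted values of 35.1 to 45.8 FPKM (log2 fold change 0.22, 95% interval -0.08 to 0.51), and CEBPG had 5.16 to 6.55 and 4.93 to 5.58 FPKM (-0.21, 95% interval -0.55 to 0.12). JDP2, a repressor of the AP-1 family, ranged from 0.617 to 1.10 FPKM in control and from 0.615 to 0.874 FPKM in OFD1-depleted samples.

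CHAC1 had the largest log2 fold change of the 30 genes. It encodes an enzyme that breaks down glutathione and is a target of ATF4 together with ATF3 and DDIT3. CHAC1 (ENSG00000128965, chromosome 15 from 40952962 to 40956512) had 1.86, 1.58 and 1.54 FPKM in control and 4.20, 4.11 and 4.32 FPKM in OFD1-depleted samples. The 3 depleted samples were close together (SD 0.106 FPKM) and all above the controls, at 254% of the control mean. The log2 fold change was 1.30 (SE 0.177, adjusted p = 0.000538), and it stayed past the threshold with any sample left out (adjusted p up to 0.00483). Its isozyme CHAC2 had means of 3.92 ± 0.465 and 4.42 ± 1.26 FPKM (SD, n = 3), a log2 fold change of 0.14 that did not pass the threshold.

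STC2, by contrast, fell, although it is known as a target of ATF4 and of hypoxia. STC2 (ENSG00000113739, chromosome 5 from 173314723 to 173328447) had 443, 366 and 459 FPKM in control and 309, 300 and 269 FPKM in OFD1-depleted samples. The groups did not overlap, and the log2 fold change was -0.52 (SE 0.142, adjusted p = 0.0274). The call was lost under median-of-ratios scaling and without control replicate 1, control replicate 3, OFD1-depleted replicate 1 or OFD1-depleted replicate 3 (adjusted p up to 0.138). Its relative STC1 fell from 26.4 ± 1.56 to 13.1 ± 1.77 FPKM (SD, n = 3), a log2 fold change of -1.01 (adjusted p = 0.00056). With STC2 among them, the 32 genes made up 0.254% to 0.279% of the summed FPKM in control and 0.221% to 0.248% in OFD1-depleted samples.

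DDIT4 (REDD1), an inhibitor of mTORC1, had 4.71, 4.96 and 5.51 FPKM in control and 6.40, 7.31 and 6.12 FPKM in OFD1-depleted samples, all higher, but its log2 fold change of 0.38 (95% interval 0.06 to 0.70) did not pass the threshold after adjustment (adjusted p = 0.104). VLDLR, a lipoprotein receptor, had 1.90, 1.58 and 1.75 FPKM against 1.45, 0.976 and 1.21 FPKM, all lower (log2 fold change -0.51, 95% interval -1.04 to 0.03, adjusted p = 0.19).

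Serine is made from a glycolytic intermediate by PHGDH, PSAT1 and PSPH in that order, and SHMT2 and MTHFD2 pass its carbon into the folate pool of mitochondria. Of the 5 tested enzymes of this route, only PHGDH passed the threshold, and it fell. PHGDH (ENSG00000092621, chromosome 1 from 119648411 to 119744218) had 31.6, 34.2 and 32.3 FPKM in control and 23.2, 26.4 and 20.7 FPKM in OFD1-depleted samples, without overlap. The log2 fold change was -0.49 (SE 0.131, adjusted p = 0.0273). The call held in 1 of the 6 fits that left out a sample, that without OFD1-depleted replicate 2, and the adjusted p-value reached 0.0936 in the others.

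The following steps gave no such difference. PSAT1 had 11.5, 13.5 and 11 FPKM in control and 13.2, 12.3 and 11.8 FPKM in OFD1-depleted samples (log2 fold change 0.05, 95% interval -0.24 to 0.35). PSPH had 11.8, 12.9 and 9.63 FPKM against 13.6, 11.8 and 11.3 FPKM (0.10, 95% interval -0.23 to 0.43). In both genes the values of the groups overlapped.

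SHMT2 had 47.9, 52.7 and 48.1 FPKM in control and 62.1, 66.8 and 51.4 FPKM in OFD1-depleted samples, where replicate 3 lay inside the control range. Its log2 fold change was 0.27 (95% interval -0.02 to 0.57, adjusted p = 0.201). The cytosolic isozyme SHMT1, in contrast, fell from 10.5, 8.98 and 9.68 FPKM to 6.13, 5.66 and 3.66 FPKM, a log2 fold change of -0.93 (adjusted p = 0.00663). The ratio of SHMT2 to SHMT1, both per length, was 5.13 ± 0.669 in control and 12 ± 1.95 in OFD1-depleted samples (SD, n = 3; exact two-sided permutation p = 0.1, again the lower limit). The lowest depleted ratio, 10.1, was above the highest control ratio, 5.86. A scaling by 1 factor per sample leaves this ratio as it is, and it was not computed after quantile normalization. Other ratios were computed and overlapped between the groups. MTHFD2 to MTHFD2L had 3.43, 3.59 and 4.48 in control and 3.75, 2.97 and 2.84 in OFD1-depleted samples. SHMT2 to MTHFD2 had 2.55, 2.42 and 2.73 against 2.43, 3.28 and 2.40. The permutation was run for the SHMT2 to SHMT1 ratio alone.

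MTHFD2 had 18.8, 21.8 and 17.6 FPKM in control and 25.5, 20.3 and 21.4 FPKM in OFD1-depleted samples, which overlapped (log2 fold change 0.21, 95% interval -0.10 to 0.52). Its isozyme MTHFD2L had 5.16 ± 1.10 and 7.06 ± 0.401 FPKM (SD, n = 3), with no overlap but an adjusted p-value of 0.0925. ALDH1L2, the mitochondrial enzyme that removes one-carbon units from folate as CO2, ranged from 0.00569 to 0.171 FPKM over all 6 samples and overlaps WASHC4 (mean 9.35 FPKM) on the opposite strand, and its cytosolic isozyme ALDH1L1 had control and depleted means of 1.03 and 1.04 FPKM.

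Among the other amino acid enzymes, ASNS rose. ASNS (ENSG00000070669, chromosome 7 from 97851677 to 97872542) makes asparagine and is the classical target of ATF4 under amino acid shortage, and its upstream element is the first sequence given above. It had 7.26, 5.76 and 7.28 FPKM in control and 10.8, 8.71 and 10.9 FPKM in OFD1-depleted samples, all higher. Replicate 2 was the lowest of both groups. The log2 fold change was 0.58 (SE 0.155, adjusted p = 0.0267). In limma the call was lost under TPM scaling, with mitochondrially encoded genes left out of the total (adjusted p = 0.0968) and without a filter (adjusted p = 0.096). It was also lost in 5 of the 6 fits that left out a sample, all but that without OFD1-depleted replicate 2 (adjusted p up to 0.0971). ASNS shares its strand with the overlapping transcript AC079781.5, listed at a mean of 1.65 FPKM.

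CBS and CTH, the pair of enzymes that turn homocysteine into cysteine with serine as a substrate, had non-overlapping values without passing the threshold. CBS had 1.19, 1.11 and 0.885 FPKM in control and 1.7, 1.71 and 2.0 FPKM in OFD1-depleted samples, a log2 fold change of 0.72 (95% interval 0.19 to 1.25, adjusted p = 0.0663). It was called higher in 5 of 17 alternatives, among them median-of-ratios scaling, quantile normalization and limma without its variance trend. CBS is uncertain, since a near-identical copy, CBSL, is listed at control and depleted means of 0.726 and 1.01 FPKM. The sum of both had 2.0, 1.91 and 1.45 FPKM in control and 2.50, 3.08 and 2.87 FPKM in OFD1-depleted samples, which also did not overlap. CTH had 1.02, 0.729 and 0.727 FPKM against 1.21, 1.41 and 1.49 FPKM, a log2 fold change of 0.68 (95% interval 0.06 to 1.29, adjusted p = 0.126). Because CTH reached the mean of 1 FPKM only through its depleted samples, the filter favoured a positive difference. Its values are therefore a description only. PCK2, the mitochondrial enzyme that makes phosphoenolpyruvate, was nearly equal in both groups, at 5.25 ± 0.881 and 5.24 ± 0.746 FPKM (SD, n = 3; 95% interval of the log2 fold change -0.38 to 0.38), and its cytosolic isozyme PCK1 was listed at 0 in all samples.

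None of the 4 amino acid transporters passed the threshold in limma, although 2 had an unadjusted p-value under 0.05. SLC7A5 (LAT1) carries large neutral amino acids in a complex with SLC3A2. SLC7A5 had 61.5, 53.1 and 70.4 FPKM in control and 51.2, 49.4 and 45.8 FPKM in OFD1-depleted samples, all lower (log2 fold change -0.33, 95% interval -0.63 to -0.03, adjusted p = 0.128). SLC3A2 had 70.4, 66.6 and 77.8 FPKM against 68.6, 81.5 and 61.6 FPKM, on both sides of the control range (-0.03, 95% interval -0.33 to 0.28). SLC1A5 (ASCT2), a glutamine transporter, had 52.4, 39.7 and 57.3 FPKM against 36.5, 40.3 and 32.3 FPKM. Control replicate 2 was lower than the other controls and overlapped the depleted samples, and the log2 fold change was -0.44 (95% interval -0.79 to -0.09, adjusted p = 0.0808). SLC7A1 (CAT1), which carries arginine and lysine, had 15.0, 12.1 and 16.3 FPKM against 21.4, 14.4 and 18.5 FPKM, with depleted replicate 2 inside the control range (0.31, 95% interval -0.06 to 0.69). Under TPM scaling SLC7A5 and SLC1A5 were called lower, and with array weights SLC7A1 was called higher as well. XPOT, which exports tRNA from the nucleus, had 20.4, 19.4 and 17.5 FPKM against 24.8, 16.7 and 22.4 FPKM (0.14, 95% interval -0.21 to 0.49).

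**Figure D2:**
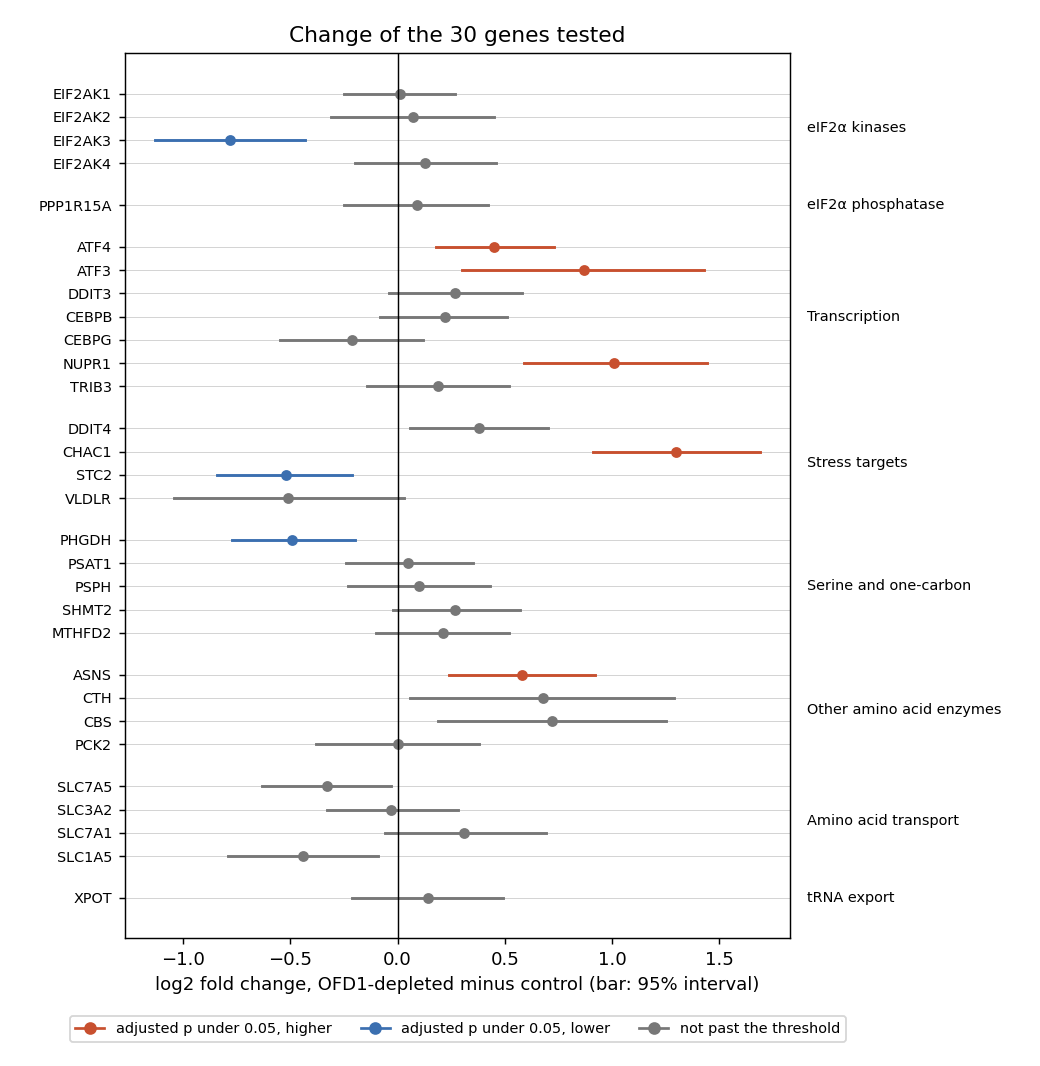
Log2 fold change of the 30 tested genes, OFD1-depleted minus control, from limma on log2(FPKM + 0.1), with 95% intervals as bars, grouped by role; red and blue mark genes past an adjusted p-value of 0.05. CHAC1 (1.30) and NUPR1 (1.01) are farthest to the right and EIF2AK3 (-0.78) farthest to the left. Of the enzymes after PHGDH, PSAT1 (0.05) and PSPH (0.10) lie near 0 and SHMT2 (0.27) and MTHFD2 (0.21) to its right, each with an interval that crosses 0.

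The OFD1-depleted replicates differed in their medians over the 30 genes and also over all tested genes. Against the mean of the controls, the median of the 30 genes on the log2 scale was 0.29, 0.13 and 0.05 in replicates 1, 2 and 3. The medians over all tested genes were 0.04, -0.09 and -0.08. Replicate 1 was the highest of the 3 in 15 of the 30 genes, close to the 47.9% of all tested genes. Replicate 3 was the lowest in 16 of the 30 genes, against 38.9% of all tested genes. Replicate 2 was the lowest in 11 of the 30 genes, against 48.2% of all tested genes. The replicate most often lowest was therefore 3 in these genes and 2 in all tested genes. Whether the replicates differ more in these genes than in others was not tested.

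The rest of the pathway was read from gene lists of the same origin. Among all tested genes 17.0% passed the threshold, 5.07% as higher and 11.9% as lower, and no list was tested as a whole. Of 10 genes for eIF2 and its exchange factor eIF2B, with PPP1R15B and EIF2A, 0 passed the threshold in limma and 1 had an unadjusted p-value under 0.05, and the median log2 fold change was 0.00. Of 8 regulators of the kinases, IMPACT alone passed (12.5% of the list). IMPACT, an inhibitor of the activation of EIF2AK4, rose from 9.28, 10.2 and 7.31 FPKM to 14.7, 12.6 and 16.1 FPKM, a log2 fold change of 0.70 (adjusted p = 0.0127). GCN1, which activates EIF2AK4, had 19.0 ± 1.71 and 15.8 ± 3.32 FPKM (SD, n = 3), and DELE1 and OMA1, which relay mitochondrial stress to EIF2AK1, had log2 fold changes of 0.11 and 0.23, none past the threshold.

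Of 20 other genes known as ATF4 targets, 15 were tested, 3 rose and 2 fell, with a median of about 0. These were 33.3% of the tested genes in the list, against 17.0% of all tested genes. SESN2, a leucine sensor that restrains mTORC1, rose from 3.72 ± 0.376 to 6.84 ± 1.01 FPKM (SD, n = 3), a log2 fold change of 0.86 (adjusted p = 0.00446). ATF5 (0.46) and HERPUD1 (0.50) rose as well and are named after their values were seen. SLC7A11, the cystine importer, fell from 2.76 ± 0.336 to 0.863 ± 0.143 FPKM (SD, n = 3; log2 fold change -1.57, adjusted p = 0.00103), and TXNIP fell by 0.59 on the log2 scale. FGF21 and ADM2 were at 0 in all samples. Of 20 cytosolic tRNA synthetases, GARS1 (0.39) and YARS1 (0.37) rose and FARSB fell (-0.59), with a median of 0.11. That is 15% of the list, against 17.0% of all tested genes.

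Of 14 tested genes of one-carbon metabolism beyond the 32, 4 fell (28.6%) and 0 rose, against 11.9% and 5.07% of all tested genes. TYMS, which makes thymidylate for DNA synthesis, fell from 73.5 ± 5.74 to 37.0 ± 3.08 FPKM (SD, n = 3), a log2 fold change of -0.99 (adjusted p = 0.000367). SHMT1, described above, was another of the 4. Of 10 tested amino acid transporters beyond the 32, SLC7A11 and SLC36A1 (-1.02), a lysosomal carrier, fell and 0 rose. The 20% that fell stand against 11.9% of all tested genes.

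The other branches of the unfolded protein response run through ATF6 and through XBP1. Of 20 tested genes of these branches, 5 fell, 1 rose and 16 had a negative log2 fold change, with a median of -0.30. Among all tested genes 11.9% fell, 5.07% rose and 53.7% had a negative value. ATF6 itself fell from 14.0, 11.6 and 12.6 FPKM to 5.43, 4.54 and 5.52 FPKM, a log2 fold change of -1.29 (adjusted p = 0.000157). PDIA4, a disulfide isomerase, fell from 49.4 ± 5.75 to 31.4 ± 1.58 FPKM and EDEM1, which sends misfolded glycoproteins to degradation, from 10.2 ± 1.26 to 6.0 ± 1.12 FPKM (SD, n = 3). The chaperone HSPA5 (BiP), which holds EIF2AK3 and ATF6 inactive, had 162, 171 and 195 FPKM in control and 140, 132 and 158 FPKM in OFD1-depleted samples (log2 fold change -0.30, adjusted p = 0.162). XBP1 had 56.2 FPKM on average in each group, and ERN1, the sensor upstream of it, was under the limit of 1 FPKM. The gene that rose was HERPUD1, which is in the list of ATF4 targets as well.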

How the data were processed

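Paired-end directional libraries of 6 samples were sequenced by the authors. According to the methods and the submitters' processing notes, the authors aligned reads with HISAT2 (version 2.0.5) to GRCh38 (Ensembl) and deposited per-gene FPKM values from StringTie, whose version and strand setting are not given in the sources used here. The labels name 2 library kits. The table holds no read counts, so no counting interval is given and tests of counts were not used.

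Samples were grouped by their titles, 3 control and 3 OFD1-depleted. Genes whose mean reached 1 FPKM were compared by limma 3.58.1 (R 4.3.3) with a variance trend on log2(FPKM + 0.1), and two-sided p-values were adjusted over all 12025 genes. The fit was tested on simulated data. All 32 genes are named, with OFD1, isozymes and copies, overlapping genes and, per other list, at most 3 called genes by lowest p-value. Other names from these lists (ATF5, HERPUD1, HSPA5, XBP1, ERN1, GCN1, DELE1, OMA1, FGF21 and ADM2) and from the marker lists were chosen after their values were seen. The genes, lists and tests were chosen with earlier results of these data known. Alternatives were other pseudocounts, filters, scalings and limma settings, the replicate block, protein-coding genes alone and each sample left out. Promoter letters came from RefSeq (GRCh38.p14) and transcript positions from GENCODE version 44. Python 3.11.15 with pandas 2.3.3 and scipy 1.17.1 was used. Some results are not reported here because they concern withheld items.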

Additional observations from a re-analysis of the deposited data

How the results depend on the processing

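Across 18 alternatives, 524 of the 623 recomputed values stayed on the reported side of the threshold with the same direction, or close to the reported count. The 524 include genes that were not called and stayed so. In 35 values a reported call was lost. ATF4 and STC2 kept their calls in 12 of 18 alternatives, PHGDH in 11 of 18, ASNS in 10 of 18 and ATF3 in 10 of 17. NUPR1 kept its call in 17 of 18, and CHAC1 and EIF2AK3 in 17 of 17. Without a filter 1083 genes passed (28501 tested), with 1 of the 32 genes higher (CHAC1) and 1 lower (EIF2AK3). With a filter at a mean of 5 FPKM, which left 24 of the 32 to be tested, 3 were higher. Without the variance trend ATF4 and PHGDH no longer passed (adjusted p = 0.0522 and 0.0532), while CBS and CTH did (0.0158 and 0.0279). CTH passed the filter only through its depleted samples, so its call is not read as support for a rise. Array weights gave 3956 genes, with 8 higher and 5 lower of the 30. TPM scaling gave 2 higher and 5 lower and a median of -0.01, and it turned EIF2AK1 to -0.14, EIF2AK2 to -0.07, EIF2AK4 to -0.02, PPP1R15A to -0.06, PSAT1 to -0.09, PSPH to -0.05, PCK2 to -0.14 and XPOT to -0.01 on the log2 scale. Leaving mitochondrially encoded genes out of the total gave 3 higher and turned EIF2AK1 to -0.05, PSAT1 to -0.01 and PCK2 to -0.06, and median-of-ratios scaling turned SLC3A2 to 0.03. None of these genes passed the threshold in either direction.

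With each sample left out in turn, between 1138 genes (without control replicate 3) and 2863 genes (without OFD1-depleted replicate 2) passed, with 2 to 6 of the 30 genes higher, 1 to 4 lower and a median from 0.08 to 0.19. The log2 fold change ran from -0.02 to 0.04 in EIF2AK1, from -0.11 to 0.13 in PCK2, from -0.01 to 0.14 in PSAT1, from -0.02 to 0.19 in PSPH, from -0.14 to 0.06 in SLC3A2, from -0.02 to 0.25 in EIF2AK2 and from -0.05 to 0.22 in PPP1R15A. Deviations from the group means correlated across genes at 0.0579, 0.0481 and 0.0110 for equal replicate numbers 1, 2 and 3. For unequal numbers the correlations ran from -0.0799 to 0.0503. Replicates 1 and 2 of both groups correlated best with their own number. Control replicate 3 correlated best with OFD1-depleted replicate 2, and OFD1-depleted replicate 3 with control replicate 1. With 3 samples in each group, these values cannot show whether the numbers pair the samples. The replicate block gave 2296 genes, against 2039 without it, and the same 5 higher and 3 lower genes. With 3 samples in each group, the intervals of genes near 1 FPKM were wide, so their differences were less well resolved.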
